A study of Mus musculus with 15 samples.

Results

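The 7 genes described here encode pieces of the complement system: the 3 chains of C1q (C1qa, C1qb and C1qc), the components C3, C4b and C6, and the C5a receptor C5ar1. They were taken by symbol from the 4567 genes that the 4 deposited tables list together, and all 7 were found, each with counts in all 15 libraries. The libraries were RNA of T cells sorted from mouse spleen, with 3 libraries for each of 5 populations. On day 7 after T cells of C57Bl6 mice were transferred into irradiated allogeneic Balb/C recipients, a model of acute graft-versus-host disease (aGvHD), CD8 cells were sorted into a Flica-positive and a Flica-negative fraction and CD4 cells into a Flica-negative fraction, and CD4 and CD8 cells of untransplanted C57Bl6 mice served as day 0 controls. Flica labels cells in which caspase-1, the protease of inflammasomes, is active, and the control cells were negative for it.

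By the study's methods, each day 7 sort pooled several mice and Flica-positive CD4 cells were too few to sequence, so CD4 cells are represented by the Flica-negative fraction. Recipients were given donor bone marrow with the T cells and kept their own cells that survive irradiation. The labels give no age and call the 3 libraries of a population biological replicates. In bulk libraries, fewer cells of a type and less RNA per cell cannot be told apart.

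Complement is a cascade of blood proteins that marks surfaces for uptake and lyses cells. C1q starts the classical pathway by binding antibody on a surface, C4 is cleaved next, C3 is the point where all pathways meet, and C6 is part of the membrane attack complex. C5a, a fragment of C5, attracts and activates myeloid cells through C5ar1. C1q is made mainly by macrophages and dendritic cells, most C3 in blood comes from the liver, and C5ar1 is typical of neutrophils and monocytes.

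The 3 C1q genes lie side by side on the minus strand of chromosome 4 in GRCm38, the build of the counts. C1qb spans chr4:136880129-136886187, C1qc chr4:136889804-136893065 and C1qa chr4:136895917-136898803, with gaps of 3616 and 2851 bases. C3 is on chromosome 17 at chr17:57203970-57228136 and C4b on the same chromosome at chr17:34728380-34743882, both on the minus strand. C5ar1 is at chr7:16246743-16259540 on the minus strand, and C6 at chr15:4727175-4814967 on the plus strand (GENCODE M21).

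The promoters of C1qb, C1qc and C3 are printed because these genes belong to the C1q and C3 patterns that differ among the libraries below. The sequences are RefSeq windows of GRCm38.p6 before the annotated start, read 5′ to 3′ on the gene's strand, and the C1qc window is shortened to the bases outside the GENCODE gene. Capitals mark the letters GAGGAA, or TTCCTC on the other strand, the core that the myeloid factor PU.1 recognizes.
C1qb, chr4:136886201-136886450, minus strand: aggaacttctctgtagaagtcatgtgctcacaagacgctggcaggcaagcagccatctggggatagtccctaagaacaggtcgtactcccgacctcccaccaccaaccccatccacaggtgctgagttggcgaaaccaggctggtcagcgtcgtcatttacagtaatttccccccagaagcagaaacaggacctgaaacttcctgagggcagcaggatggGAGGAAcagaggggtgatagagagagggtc
C1qc, chr4:136893066-136893164, minus strand: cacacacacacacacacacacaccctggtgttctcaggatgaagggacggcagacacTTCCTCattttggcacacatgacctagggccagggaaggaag
C3, chr17:57228137-57228386, minus strand: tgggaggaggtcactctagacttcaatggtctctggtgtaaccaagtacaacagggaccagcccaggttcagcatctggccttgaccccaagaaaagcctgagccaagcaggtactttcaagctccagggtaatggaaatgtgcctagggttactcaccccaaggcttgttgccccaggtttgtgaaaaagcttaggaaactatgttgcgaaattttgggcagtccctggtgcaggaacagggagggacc

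RefSeq windows were at hand for 5 of the 7 genes, and each was searched on both strands over the 250 bases before the RefSeq start. For C1qc, C5ar1 and C6 part of the searched window lies inside the GENCODE gene given above. Positions count back from the RefSeq start, so the C1qc position is not counted from the end of its shortened print. GAGGAA was found in C1qb at -30 to -25 and in C1qc at -193 to -188, and not in C3, C5ar1 or C6. It occurs in 23.4% of 32536 mouse windows of the same length. The STAT motif TTCNNNGAA (7.04% of windows) and the AP-1 motif TGACTCA (4.45%) were in none of the 5 windows. These are matches of letters only.

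Counts on the listed genes ranged from 2143579 to 11046043 per library and were highest in the CD8 Flica-positive libraries, from 7310375. Mitochondrially encoded genes took 42.8% to 51.7% of these counts in the CD8 Flica-positive libraries, 26.1% to 28.8% in the controls and 15.1% to 16.5% in the Flica-negative libraries. Levels below are normalized counts, the count divided by a size factor between 0.836 and 1.25 recovered from the deposited means. Of 12 T cell markers, Cd8a, which encodes a chain of CD8, is the only listed gene. Cd8a stood at 10759 ± 1222 (SD, n = 3) in CD8 Flica-positive, 13875 ± 1075 in CD8 Flica-negative and 19748 ± 1700 in CD8 control cells, and at 6.43 ± 3.45 and 69.4 ± 40.9 in CD4 Flica-negative and CD4 control cells. Markers of other cells were present too. The summed level of the 14 neutrophil markers, all listed, was 200517 to 387729 in CD8 Flica-positive, 11864 to 18188 in CD8 Flica-negative and 60.9 to 118 in CD8 control libraries. The sum of the 15 listed of 19 macrophage markers was 18490 to 37013, 1717 to 2963 and 411 to 704 in the same order. CD8 Flica-positive replicate 1 had an erythroid marker sum of 110389, against 6735 and 1393 in replicates 2 and 3. The other day 7 populations had the same order, with 3555, 523 and 272 in CD8 Flica-negative and 1933, 712 and 362 in CD4 Flica-negative replicates 1, 2 and 3. Replicate 1 was also lowest in the neutrophil sum in each day 7 population.

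C3, the central component, separated all 3 day 7 populations. Its levels in CD8 Flica-positive replicates 1, 2 and 3 were 5154, 12514 and 13787, and in CD8 Flica-negative replicates 364, 857 and 665. In CD8 controls it stood at 14.98, 0.896 and 35.6. CD4 Flica-negative cells had 102, 69.2 and 235, and CD4 controls 14.5, 15.5 and 10.7. No day 7 library overlapped the controls, and the 3 day 7 populations did not overlap each other.

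C5ar1 was ordered in the same way. CD8 Flica-positive libraries had 538, 1084 and 1222 normalized counts, and CD8 Flica-negative libraries 25.6, 52.3 and 56.1. CD4 Flica-negative libraries had 11.5, 13.4 and 20.02. The CD8 controls had 3.52, 0 and 0, and the CD4 controls 0, 0 and 4.45. As with C3, the 3 day 7 populations did not overlap and all lay above both controls.

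C4b, whose protein is cleaved by the C1 complex, was near 0 outside CD8 cells of day 7. Its levels were 170, 344 and 512 in CD8 Flica-positive and 30.9, 45.7 and 8.63 in CD8 Flica-negative libraries. In CD4 Flica-negative libraries it was 0, 0 and 4.004, and each control population held 1 read in all. C4b has a near-identical neighbour, C4a, which has no row, so how reads were shared between them is uncertain.

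The 3 C1q genes were low everywhere except in CD8 Flica-positive cells. C1qa stood at 396, 198 and 193 there, C1qb at 356, 319 and 23.9, and C1qc at 233, 171 and 151. In CD8 Flica-negative libraries C1qa was 7.46, 7.46 and 22.4, C1qb 10.7, 14.9 and 0, and C1qc 11.7, 3.73 and 2.59. In the CD4 Flica-negative libraries C1qa was 19.4, 21.2 and 1.60, C1qb 7.05, 15.6 and 20.8, and C1qc 8.82, 6.70 and 5.61. C1qa had no read in the 3 CD8 controls, while C1qc had 9.69, 13.4 and 13.5 there, and the highest level of any C1q gene in a CD4 control was 15.6, for C1qa. The gap was smallest for C1qb, with 23.9 in CD8 Flica-positive replicate 3 against a highest value elsewhere of 20.8.

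C6, a late component, was detected mainly in 1 population. CD8 Flica-positive libraries had 31.7, 34.1 and 41.9 normalized counts. All other libraries were at 0 or under 2, except CD4 Flica-negative replicate 3 with 9.61.

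**Figure D1:**
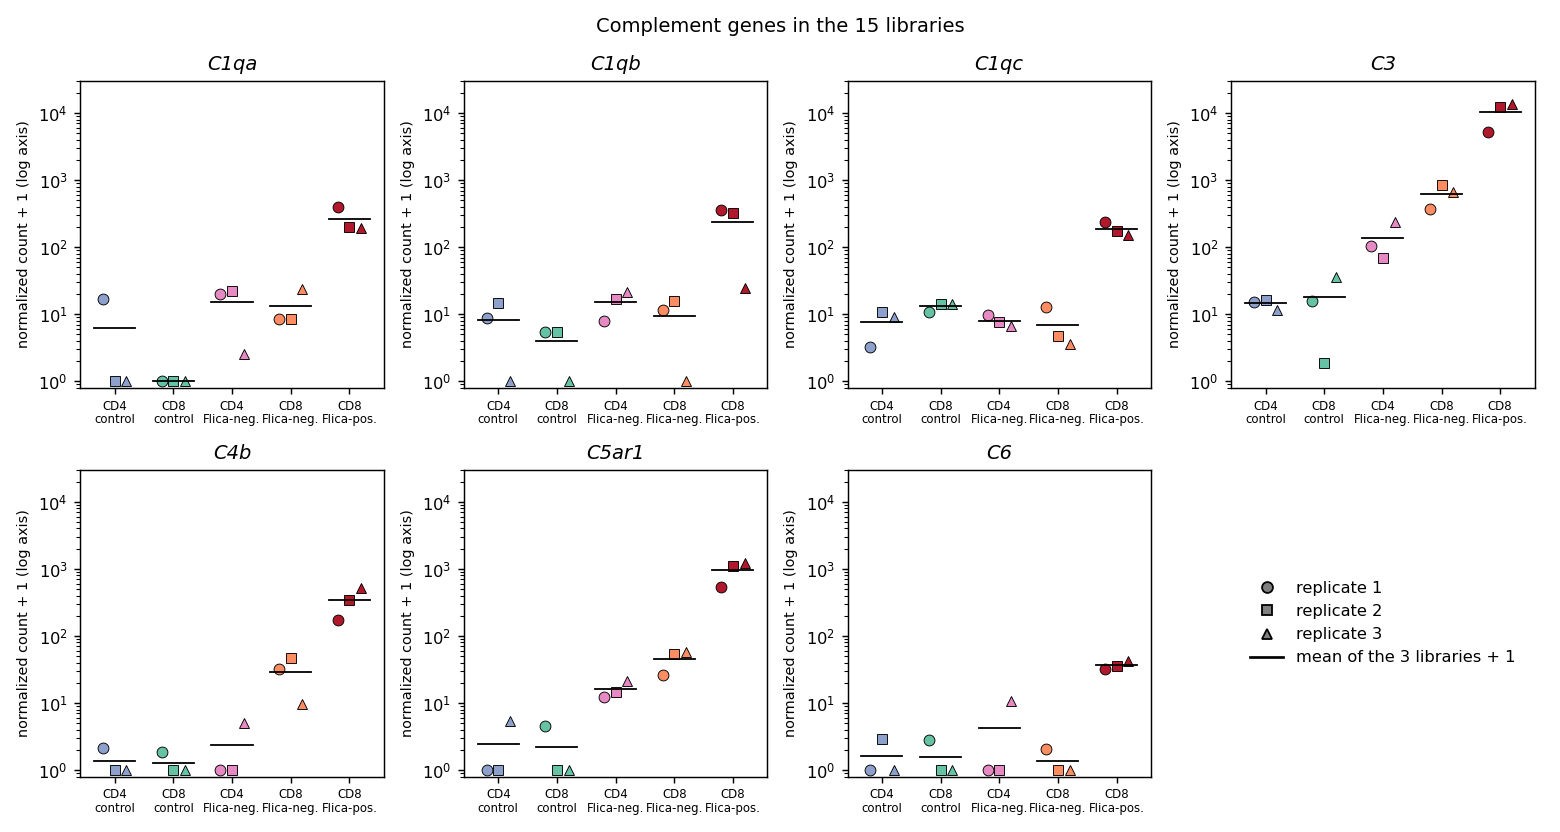
Normalized count plus 1 of each gene (log axis) in the 15 libraries, with 3 points per population and a bar at the mean plus 1. C3 steps up from controls to CD4 Flica-negative, CD8 Flica-negative and CD8 Flica-positive libraries, while the C1q genes and C6 are high in the CD8 Flica-positive libraries alone, apart from C1qb in replicate 3 at 23.9.

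Per kilobase of the longest coding transcript, the order of levels in CD8 Flica-positive cells was C3 (2041 ± 907 normalized counts per kb, SD, n = 3), C5ar1 (373 ± 142), C1qa (252 ± 112), C1qb (214 ± 167), C1qc (154 ± 35.8), C4b (63.6 ± 31.8) and C6 (12.5 ± 1.85). C3 did not overlap C5ar1, C1qc did not overlap C4b, and C4b did not overlap C6. C1qb, at 22.0 per kb in replicate 3, overlapped C4b, which ran from 31.6 to 95.2. The neighbours from C5ar1 to C1qc overlapped each other. In CD8 Flica-negative cells C3 was also first, at 122 ± 48.4 per kb, followed by C5ar1 at 17.6 ± 6.55.

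The main comparison asks what differs between CD8 cells with and without active caspase-1 in the same recipients. All 7 genes were higher in CD8 Flica-positive than in CD8 Flica-negative cells by edgeR's quasi-likelihood test (Benjamini-Hochberg adjusted p under 0.05), in every library, against 20.6% of the 4567 listed genes called higher and 29.9% higher without overlap (2.63% were called lower). The 7 genes are listed because the authors' test on these libraries picked them, so the count is not independent evidence. C3 differed by 4.06 on the log2 scale (SE 0.41, adjusted p = 1.1e-05), C5ar1 by 4.40 (SE 0.42, adjusted p = 7.0e-06) and C4b by 3.59 (SE 0.62, adjusted p = 8.3e-04). The C1q genes differed by 4.37 for C1qa (SE 0.61, adjusted p = 1.6e-04), 4.77 for C1qb (SE 1.10, adjusted p = 0.0068) and 4.94 for C1qc (SE 0.69, adjusted p = 1.7e-04). C6 rested on 91 reads against 1, a ratio of 114 with a 95% interval from counting alone of 19.9 to 4536 (adjusted p = 0.009). That read is in CD8 Flica-negative replicate 1, without which C6 was at least 13.3-fold higher. The C1q values moved with single CD8 Flica-negative libraries and stayed called. C1qa was 5.11 without replicate 3, C1qb 5.48 without replicate 2 and 4.17 without replicate 3, and C1qc 5.82 without replicate 1. With library sizes that leave out the mitochondrially encoded genes, all 7 were still called and the 6 differences other than C6 ran from 2.35 (C4b) to 3.60 (C1qc). The median difference of the 7 was 4.40, against 0.38 over all listed genes.

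Neutrophil and macrophage markers moved in the same direction. All 14 neutrophil markers were called higher in CD8 Flica-positive cells, and their mean sum was 19.7-fold higher. Of the 15 listed macrophage markers 11 were called higher and none lower, and their mean sum was 12.1-fold higher, or 3.41-fold without Lyz2, a gene of the list that neutrophils also express. Over the same libraries the mean level of C3 was 16.7-fold, of C5ar1 21.2-fold and of C4b 12.03-fold higher, and the C1q genes 21.1-fold (C1qa), 27.3-fold (C1qb) and 30.7-fold (C1qc). B cell markers (4 of 7 called higher) and erythroid markers (5 of 5, but only 1 without overlap) also moved with the comparison. Cd8a differed by -0.37 and was not called. The part of these other cell types in the complement result was not tested.

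A further description, chosen after the values were seen, set each gene against a marker sum within the same library. Per 1000 neutrophil marker counts, C5ar1 was 2.68 to 3.15 in CD8 Flica-positive, 2.16 to 3.11 in CD8 Flica-negative and 2.57 to 4.29 in CD4 Flica-negative libraries. The level of C5ar1 ran from 11.5 to 1222 over these 9 libraries. C3 per 1000 neutrophil marker counts was 25.7 to 35.6, 30.7 to 47.1 and 14.7 to 38.3 in the same order. The populations overlapped on both of these ratios. C4b per 1000 neutrophil marker counts was 0.848 to 1.32 in CD8 Flica-positive and 0.478 to 2.60 in CD8 Flica-negative libraries, which overlap, and 0 to 0.514 in CD4 Flica-negative libraries, which lay below the CD8 Flica-positive ones. For C1qa and C1qc, whether CD8 Flica-positive and Flica-negative libraries overlapped depended on 1 gene of the macrophage list, while C1qb overlapped with and without that gene. Per 1000 counts of the whole macrophage list C1qa was 5.34 to 21.4 in CD8 Flica-positive and 2.52 to 8.29 in CD8 Flica-negative libraries. C1qc was 4.44 to 12.6 against 0.956 to 6.82 and C1qb 0.705 to 19.3 against 0 to 6.20. The CD8 Flica-positive and Flica-negative libraries overlapped on each of these ratios. On this scale C1qc was 13.8 to 32.8 in CD8 controls, above the CD8 Flica-positive libraries, while C1qa was 0 there. C1qa was 0.9965 to 16.2 in CD4 Flica-negative and 0 to 20.4 in CD4 control libraries, which both overlap the CD8 Flica-positive range. Leaving out Lyz2, C1qa was 51.8 to 105 in CD8 Flica-positive and 6.79 to 20.1 in CD8 Flica-negative libraries, without overlap. In the same order C1qc was 44.7 to 61.6 against 2.32 to 12.3, without overlap. C1qb was 7.54 to 94.1 against 0 to 13.6, which overlap. C1qc in CD8 controls was then 16.5 to 37.4, below the CD8 Flica-positive libraries. C6 on the same scale was 8.36 to 13.2 in CD8 Flica-positive and 0 to 1.12 in CD8 Flica-negative libraries, without overlap. In CD4 Flica-negative libraries it was 0 to 10.1, with the upper value in replicate 3, which lies within the CD8 Flica-positive range. What these ratios reflect was not tested.

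**Figure D2:**
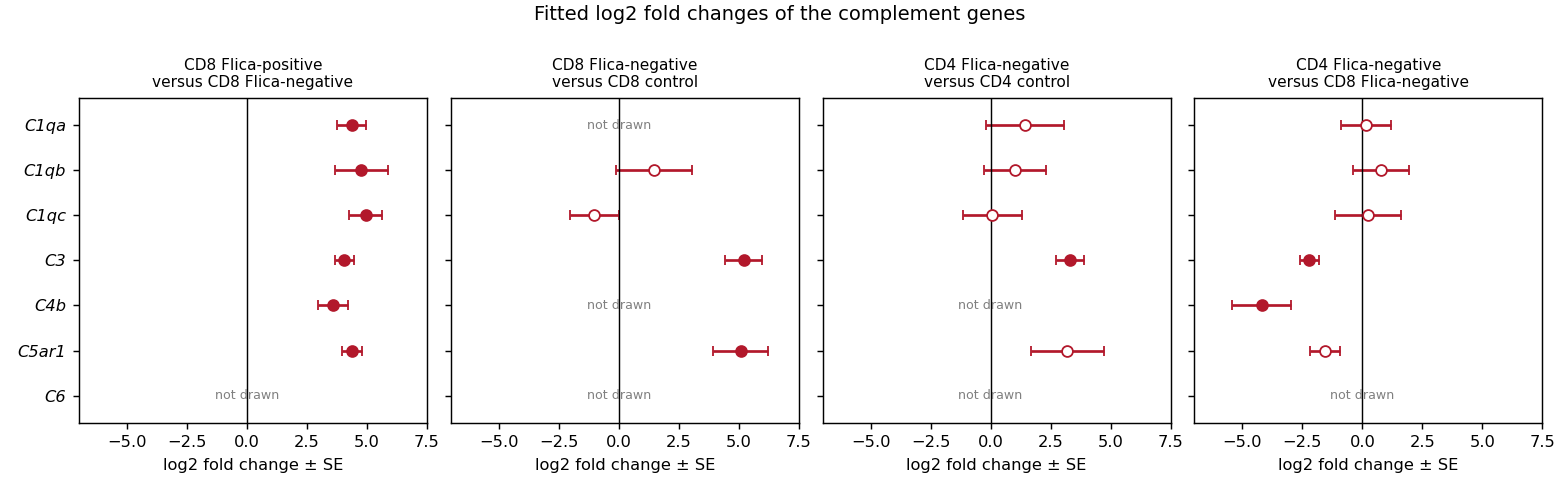
Fitted log2 fold change of each gene in 4 comparisons, with bars of 1 SE and filled points where the adjusted p was under 0.05. All 6 drawn genes lie between 3.59 and 4.94 for CD8 Flica-positive versus Flica-negative cells, while C1qb and C1qc are open points for Flica-negative versus control cells in both lineages; genes with 3 or fewer reads in 1 group are not drawn.

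The 3 CD8 Flica-positive libraries did not rank the 7 genes alike. C3, C4b and C5ar1 were lowest in replicate 1, at 49.2%, 49.7% and 56.8% of their means over the 3 libraries. The neutrophil sum, at 63.6%, and the macrophage sum, at 62.0%, were lowest in that library too. Without Lyz2 the macrophage sum was 3787, 3820 and 3170 in replicates 1, 2 and 3, lowest in replicate 3. Of the 15 macrophage markers 7 were highest in replicate 1 (Apoe, Cd163, Cd5l, Mrc1, Slc40a1, Spic and Vcam1) and 4 lowest. The C1q genes were highest in it, at 151% for C1qa, 153% for C1qb and 126% for C1qc. The erythroid sum was also highest there, at 279%, and Cd8a was at 106%. C1qb was at 10.3% in replicate 3, where C1qa was at 73.4% and C1qc at 81.5%. Of 2364 genes with a mean of at least 50 in these libraries, 59 were at least 5-fold below both other libraries in replicate 3, among them C1qb, Fcna, Hbb-bs, Hbb-bt, Siglec1 and Xcr1, against 9 in replicate 1 and 12 in replicate 2. Leaving out replicate 1 or replicate 3, all 7 genes were still called.

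**Figure D3:**
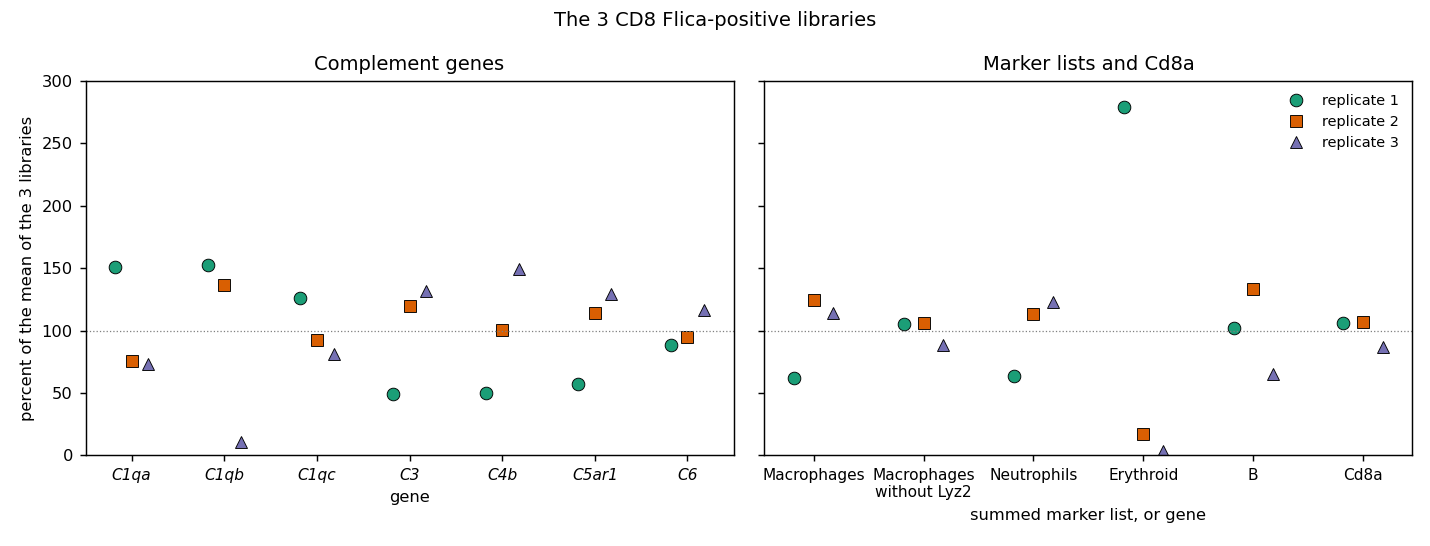
Level in each CD8 Flica-positive library as a percent of the mean of the 3 libraries, for the 7 genes (left) and for marker sums and Cd8a (right). C3, C4b and C5ar1 are lowest in replicate 1 like the neutrophil sum and the macrophage sum with Lyz2, while the macrophage sum without Lyz2 is at 105% there, the C1q genes are highest there, and C1qb is at 10.3% in replicate 3.

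CD8 Flica-positive cells were next compared with CD8 control cells. All 7 genes were higher (edgeR adjusted p under 0.05) and none overlapped the controls, against 46.8% of listed genes called higher and 48.2% higher without overlap. The authors' test of this comparison picked all 7 as well, so the count is not independent evidence. Neutrophil and macrophage markers rose too. All 14 neutrophil markers were called higher, with a mean sum 3739-fold higher, and 14 of the 15 macrophage markers, with a mean sum 54.5-fold higher or 7.78-fold without Lyz2, and their part in the result was not tested. C3 differed by 9.26 on the log2 scale (SE 0.95, adjusted p = 5.0e-05), C5ar1 by 9.47 (SE 0.86, adjusted p = 2.7e-05), C1qb by 6.22 (SE 1.30, adjusted p = 0.0033) and C1qc by 3.91 (SE 0.61, adjusted p = 6.1e-04). C1qa was at least 95.8-fold higher (adjusted p = 1.5e-04), taking 3 reads per control library as the limit a count of 0 allows. Without CD8 Flica-positive replicate 1, where C1qa was highest, it was at least 71.3-fold higher. C4b rested on 865 reads against 1, a ratio of 1122 (95% counting interval 201 to 44350, adjusted p = 4.7e-05). C6 rested on 91 against 2, a ratio of 59.0 (15.9 to 495, adjusted p = 0.009), and with the replicate number as a block its adjusted p was 0.059. CD8 control replicate 1 holds all control reads of C5ar1, C4b and C6, and without it they were at least 340-fold, 122.7-fold and 12.9-fold higher. C3 differed by 10.34 without CD8 control replicate 3. With library sizes that leave out mitochondrially encoded genes the differences were 7.67 for C3, 7.93 for C5ar1, 4.51 for C1qb and 2.26 for C1qc, and all stayed called. C1qc had the smallest fitted difference of the 4 and a level of 12.2 ± 2.17 in the CD8 controls.

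In CD8 Flica-negative cells 4 of the 7 genes were higher than in CD8 controls by the same edgeR test, against 37.5% of listed genes, and these 4 did not overlap the controls (40.7% of listed genes). The authors' test of this comparison picked the same 4, so this count is not independent evidence either. C3 rose by 5.20 on the log2 scale (SE 0.77, adjusted p = 1.7e-04) and C5ar1 by 5.09 (SE 1.15, adjusted p = 0.0028). C4b rested on 88 reads against 1, a ratio of 91.4 (95% counting interval 16.0 to 3651, adjusted p = 0.0025). Without CD8 control replicate 1, which holds all 4 control reads of C5ar1 and the 1 of C4b, C5ar1 was at least 16.02-fold and C4b at least 10.2-fold higher. C3 rose by 6.28 without CD8 control replicate 3. C1qa was at least 4.55-fold higher (adjusted p = 0.0087), from 41 reads against 0, and at least 2.72-fold without CD8 Flica-negative replicate 3, and with the replicate block its adjusted p was 0.067. C1qb differed by 1.48 (95% interval -1.60 to 4.56, adjusted p = 0.41) and C1qc by -1.02 (-3.02 to 0.98, adjusted p = 0.38), so neither was called. C6, with 1 and 2 reads, was not detectable as different at this depth. Of the 14 neutrophil markers 13 were called higher in this comparison, and of the 15 macrophage markers 4 higher and 1 lower. Their part in the result was not tested.

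In CD4 Flica-negative cells C3 alone was called against CD4 controls, higher by 3.32 (SE 0.57, edgeR adjusted p = 3.1e-04), while 31.1% of listed genes were called higher. The authors' own test of this comparison picked C5ar1 as well as C3. Without CD4 Flica-negative replicate 3, C3 was higher by 2.65 and still called. C3 and C5ar1 lay above every control library, as did 35.0% of listed genes, but C5ar1 differed by 3.19 with an adjusted p of 0.09. It was called with all 15 libraries in 1 fit (adjusted p = 0.0065) and without CD4 control replicate 3 (adjusted p = 0.011), which holds its 5 control reads, and C1qa was called without CD4 control replicate 1 (adjusted p = 0.035), the library that holds all 14 control reads of C1qa. C1qb (1.02, 95% interval -1.52 to 3.56) and C1qc (0.08, -2.37 to 2.52) overlapped the controls. C4b and C6 rested on 5 and 12 reads, each from CD4 Flica-negative replicate 3 alone. Of the neutrophil markers 12 of 14 were called higher here too, and their part in the result was not tested.

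Between the lineages on day 7, C3 was lower in CD4 than in CD8 Flica-negative cells by 2.21 on the log2 scale, a difference of -2.21 (SE 0.39, edgeR adjusted p = 3.3e-04), and C4b differed by -4.20 (SE 1.24, adjusted p = 0.019), against 12.3% of listed genes called lower. Without CD4 Flica-negative replicate 3, the C3 difference was -2.87, and C4b, whose 5 CD4 reads are all in that library, was at least 9.48-fold lower in CD4 cells. C4b was not called without CD4 Flica-negative replicate 1 (adjusted p = 0.051) or replicate 2 (0.056), or without CD8 Flica-negative replicate 2 (0.14). C5ar1 differed by -1.57 (95% interval -2.80 to -0.34, adjusted p = 0.084), and C3, C4b and C5ar1 did not overlap between the lineages (19.6% of listed genes lower without overlap). The neutrophil marker sum was 3.17-fold higher in the CD8 cells, with 11 of 14 markers called. The C1q genes differed by 0.16 (C1qa), 0.77 (C1qb) and 0.23 (C1qc) and overlapped.

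On day 0 none of the 7 genes was called between CD4 and CD8 controls by edgeR, none had an unadjusted p under 0.05, and DESeq2 called none of the 4 genes for which it gave an adjusted p (C1qa, C1qb, C1qc and C3), against 6.5% of listed genes called higher and 5.45% lower in CD4 cells, and 20.3% with an unadjusted p under 0.05. The test of whether the day 7 change differed between the lineages called none either, with none under an unadjusted p of 0.05, against 10.2% and 25.7% of listed genes. For C3 the difference of the changes was -1.88 (SE 0.94, adjusted p = 0.22).

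The rest of the complement system was covered by a list of 52 further genes, of which 14 have a row. Among initiators these were C1ra and C1rb, proteases of the C1 complex, and the ficolins Fcna and Fcnb, which start the lectin pathway. Properdin (Cfp) stabilizes the alternative pathway. The receptor genes were Itgam and Itgax, integrin chains of complement receptors 3 and 4, Cr2, a B cell receptor for C3 fragments, and Cd93. The regulators were Cd55, Cd55b, Cd59a, Clu and Susd4, and none of the 6 terminal genes on the list, which excludes C6, has a row. C1ra and C1rb, and Cd55 and Cd55b, are close copies whose counts are uncertain.

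Between CD8 Flica-positive and Flica-negative cells 5 of these 14 were called higher (edgeR) and 1 lower, against 20.6% and 2.63% of listed genes. Fcnb stood at 1166 ± 244 against 81.6 ± 10.3 (log2 difference 3.83, SE 0.28, adjusted p = 1.3e-06), Cfp at 541 ± 119 against 90.9 ± 18.6 and Cd93 at 436 ± 172 against 44.0 ± 20.1. Itgam was also higher, at 1814 ± 535 against 564 ± 121, and so was Fcna, although its CD8 Flica-positive libraries overlapped the others. Itgax went the other way, 5234 ± 685 against 8514 ± 1538 (log2 difference -0.70, SE 0.21, adjusted p = 0.029). C1ra, C1rb, Clu, Cd55, Cd55b, Cd59a, Cr2 and Susd4 were not called.

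Against CD8 controls, 9 of the 14 were higher in CD8 Flica-positive cells and 4 lower, Cd55, Cd55b, Cr2 and Susd4, against 46.8% and 23.9% of listed genes. In CD8 Flica-negative cells 4 were higher (Fcnb, Itgam, Itgax and C1ra) and 5 lower (the same 4 and Cfp), against 37.5% and 29.0%. In CD4 Flica-negative cells 3 were higher (Fcnb, Itgam and Itgax) and 4 lower (Cfp, Cd55, Cd55b and Cr2), against 31.1% and 26.5%. Cd55, which protects cells from C3 convertases, was at 2237 ± 159 in CD8 controls and 435 ± 140 in CD8 Flica-negative cells, a log2 difference of -2.36 (SE 0.26, adjusted p = 1.9e-05), and at 1963 ± 87.2 and 348 ± 84.7 in the CD4 populations, a difference of -2.50 (SE 0.22, adjusted p = 8.6e-07). Cr2 was at 551 ± 99.9 in CD8 controls and 3.22 ± 0.91 in CD8 Flica-negative cells. The summed B cell markers were 6032 to 9245 in CD8 controls and 605 to 952 in CD8 Flica-negative libraries, and their part in the Cr2 result was not tested.

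**Figure D4:**
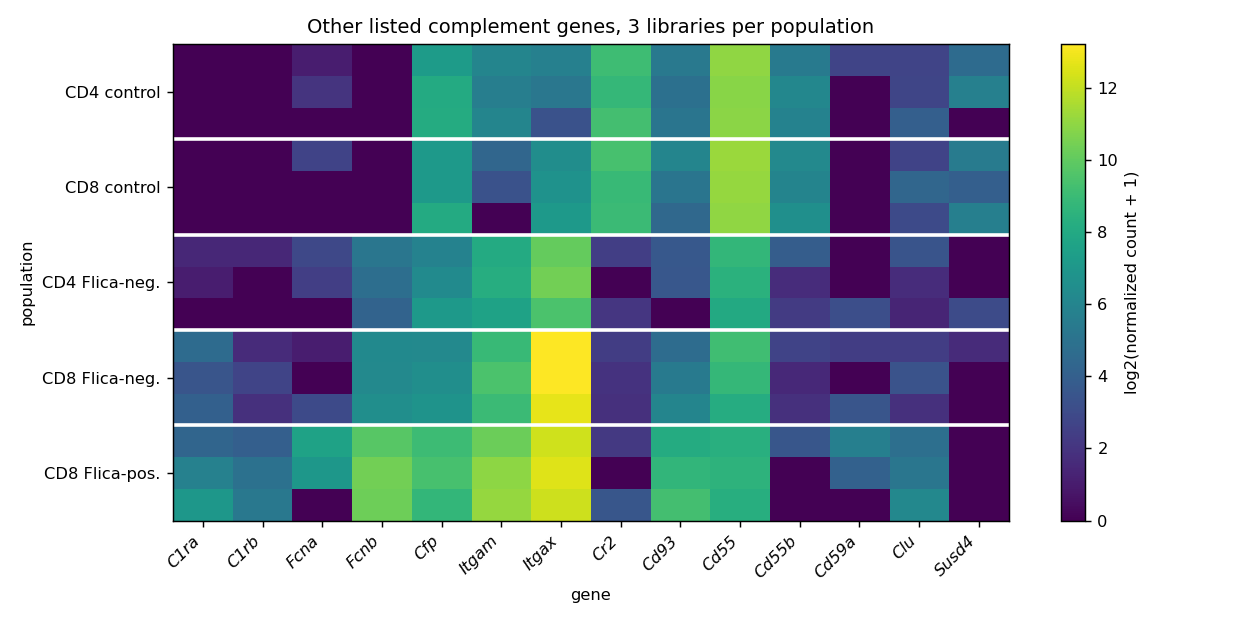
Heat map of log2(normalized count + 1) for 14 other listed complement genes (columns) in the 15 libraries (rows, 3 per population). Fcnb, Cfp, Cd93 and Itgam are brightest in the CD8 Flica-positive libraries, and Cr2 and Cd55 in both control populations.

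The listed genes whose pattern over the 15 libraries was most like each of the 7 were found by Pearson correlation of log2(normalized count + 1) among 2175 genes with a mean of at least 50. For C3 they were S100a9, Serpinb1a and Fpr2 (r = 0.98, 0.98 and 0.97), and for C5ar1 Fn1, Lrg1 and Gda (0.99, 0.99 and 0.98). For C4b they were 4930438A08Rik, Tfec and Csf2rb (0.98, 0.98 and 0.97). C1qa was closest to Tmem40, Clec5a and Mmp25 (0.94, 0.93 and 0.92), C1qb to Vcam1, mt-Rnr2 and C1qtnf12 (0.83, 0.82 and 0.82), and C1qc to Gm13341, Gm10925 and mt-Atp6 (0.95 each), the last a mitochondrially encoded gene. For C6 they were Tlr13, Cask and Zfp385a (0.89, 0.88 and 0.88). Among the 7 genes themselves r was highest between C3 and C5ar1 (0.96) and lowest between C1qa and C6 (0.63). The points share libraries and size factors, and the values describe these 15 libraries.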

How the data were processed

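Sorted T cell libraries (3 per population, 5 populations) were analysed from 4 tables of differentially expressed genes. The submitters' processing notes name STAR 2.7.1a, DESeq2 and GRCm38; the counting tool, its use of strand and the annotation are not given in the sources used here. In each table the authors deposited raw counts for all 15 libraries and a mean signal, the mean of the counts divided by their size factors. The tables hold genes that passed the authors' thresholds only. Their own fold changes, p-values and enriched terms were not used. No column was left unmapped (0).

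Size factors were recovered by least squares from counts and deposited means (largest relative error 6e-15). Comparisons used edgeR 4.0.16 (quasi-likelihood, R 4.3.3) on the counts of the 2 groups compared, or of 4 groups for the difference of responses, with Benjamini-Hochberg adjustment over the 4567 listed genes (4423 with a symbol) and a threshold of 0.05. Since the tables hold genes chosen on these libraries, p-values are not independent evidence, and they measure the spread between 3 libraries. Members and lists were chosen with earlier results of these data known; named genes are the 7 members, the 14 genes reported of the complement list (1 further gene is not reported here) and the 3 genes most like each member. Other genes named, such as markers and those low in 1 library, were chosen after values were seen. The checks by single library, the ratios to marker sums and the choice of promoters were made after values were seen. Where a group held no read, 3 reads per library were taken as the limit. With 1 to 3 reads, an exact 95% interval covers counting error only. The 95% intervals on the log2 scale use a normal approximation with an SE derived from edgeR's F statistic. They can be too narrow: for C5ar1 in CD4 Flica-negative versus control cells the interval was 0.21 to 6.16 at an unadjusted edgeR p of 0.057. No 2 libraries were duplicates (chi-square per gene at least 13.4). On simulated counts for CD8 Flica-positive versus Flica-negative cells (4328 genes, 200 changed 4-fold), 102 changed and 4 unchanged genes were called. When the mean was 50 or more, 77 of 83 were called. Both groups were simulated from the levels and spread of the CD8 Flica-negative libraries. The CD8 Flica-positive libraries had a chi-square per gene of 89.2 to 265 among themselves, against 18.9 to 38.4 for CD8 Flica-negative ones. The rates on simulated counts may therefore not hold for the measured comparison. Alternatives were TMM, library sizes without mitochondrial genes, a mean of at least 10, DESeq2 1.42.0, all 15 libraries in 1 fit, a replicate block and leaving out each library.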

Additional observations from a re-analysis of the deposited data

How the results depend on the processing

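Across 571 refits of 45 gene-by-comparison differences, 547 kept their direction; pairs with both groups at 3 reads or fewer had no fold (C6 in 3 comparisons, C4b between controls, and C1qa between controls without CD4 control replicate 1). No scaling turned a called gene. The 24 reversals were in differences that had not passed the threshold. In CD4 Flica-negative versus control cells, C1qc (0.08) became -0.14 with TMM and -0.16 without mitochondrial genes; leaving out 1 library each gave ranges of -0.32 to 0.44 for C1qc, -1.94 to 3.70 for C4b and -2.65 to 4.84 for C6. Between the day 7 lineages these ranges were -0.26 to 0.90 for C1qa, -0.13 to 1.13 for C1qc and -1.92 to 4.89 for C6. Between controls they were -0.89 to 0.76 for C3 and -3.45 to 3.76 for C5ar1, and C3 was 0.36 with the replicate block. For the difference of responses they were -5.90 to 0.17 for C1qa, -1.04 to 0.41 for C1qb and -5.40 to 1.91 for C5ar1, whose positive value came without CD4 control replicate 3, and C1qb was 1.29 with the replicate block. The cause was not tested.

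The number of the 7 genes called in CD4 Flica-negative versus control cells was 1, and 2 with all 15 libraries in 1 fit; leaving out a library gave 1 to 2. Between day 7 lineages it was 2, and 1 to 2 leaving out a library. The other counts stayed within 1.5 times. C6, whose mean is under 10, drops out of the filtered fits. With the replicate block, 6 genes were called in CD8 Flica-positive versus control (C6 lost) and 3 in CD8 Flica-negative versus control (C1qa lost), and no other call changed. Same-numbered CD8 Flica-positive and Flica-negative libraries deviated together with r of 0.11, 0.03 and 0.06 over all listed genes and 0.17, 0.05 and 0.17 over those with a mean of at least 50. In neither did all 3 exceed 0.1, and the filter was varied after values were seen. With the filter on the mean, CD4 and CD8 Flica-negative libraries of the same number gave 0.22, 0.07 and 0.25. CD4 and CD8 controls gave 0.10, 0.04 and 0.06, and CD8 Flica-positive and CD8 control libraries -0.08, -0.02 and -0.04. Whether same-numbered libraries share mice cannot be told from these correlations, and the labels do not state it. The erythroid marker sum fell from replicate 1 to replicate 3 in each day 7 population. It was also lowest in replicate 3 of both control populations. The main tests left out pairing, so they may ignore a shared sort, and the calls lost with the replicate block are those given above.

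The median of all listed genes in CD8 Flica-positive versus Flica-negative cells was 0.38, -0.11 with TMM and -0.85 without mitochondrial genes; against CD8 controls it was 2.04, 0.38 and 0.41, and for CD8 Flica-negative versus control 0.66, 0.24 and 0.33. Genes with few reads, C6 and the control levels of C4b, C1qa and C5ar1, limit what these depths can show.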
